A study of Spirodela polyrhiza with 13 samples.

Results

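Fronds of the greater duckweed, Spirodela polyrhiza, at stage 4 of development were compared with fronds at stage 2, across the early phase of the series. The comparison took every library labelled with these stages, 3 at stage 4 and 3 at stage 2, which were 6 of the 13 libraries of the series. Both groups were frond tissue of wild-type plants, kept under long days in SH medium that was renewed weekly, with no treatment named for either. The labels give neither the age nor the morphology that defines a stage. Nothing in them tells if replicate libraries were made from separate plants or cultures, so the p-values rest on a spread that may be technical.

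A duckweed frond is a reduced, leaf-like body that floats, and it multiplies by budding daughter fronds from pockets at its base. The mesophyll of a maturing frond opens into aerenchyma, a network of gas-filled chambers that carries buoyancy and gas exchange. The study asks how plant hormones, which set cell division, expansion and cell separation in such tissue, relate to the layout of these chambers. The deposited table lists gene IDs without names, so no gene below could be tied to a hormone pathway or a cell type, the frond label could not be checked against marker genes, and genes are given by ID. In whole fronds, a gene's lower value can come from fewer cells of a type or from less RNA per cell, and these cannot be told apart.

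Expression was given in FPKM, the fragments on a gene per kilobase of its length, scaled to the library total. Reads behind the values, recovered from their steps, totalled 9278498 to 10650000 per library at stage 4 and 8928894 to 10910370 at stage 2. Of 19623 gene IDs, 15147 (77.2%) reached 1 FPKM in at least 2 of the 6 libraries and were tested. Another 2493 had no read in these libraries, and 1983 had reads but missed the minimum. Genes near the minimum were few. The second highest of the 6 values lay between 1 and 1.1 FPKM for 78 genes inside it and between 0.9 and 1 FPKM for 70 genes outside it.

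Libraries of the same stage were closer to each other than to those of the other stage. Across genes, log2(FPKM + 1) correlated by 0.978 to 0.987 over the 3 pairs within stage 4 and by 0.986 to 0.989 over the 3 pairs within stage 2. It correlated by 0.927 to 0.960 over the 9 pairs of a stage 4 with a stage 2 library. Genes at 1 FPKM or more numbered 14864 to 14900 at stage 4 and 14599 to 14692 at stage 2, so the stages did not overlap (exact two-sided permutation test, p = 0.1, n = 3 each, the smallest this design allows, and 0.2 adjusted over 4 measures). The 100 genes with most reads in each library held 12.6% ± 0.675 of reads at stage 4 and 11.6% ± 0.127 at stage 2 (SD, n = 3 each, no overlap, exact permutation p = 0.1). Median FPKM was 16.1 ± 0.432 at stage 4 and 16.3 ± 0.306 at stage 2 (SD, n = 3 each), with overlapping libraries (exact permutation p = 0.7).

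Between stage 4 and stage 2, 6194 of 15147 genes (40.9%) passed limma's test (Benjamini-Hochberg, BH, adjusted p under 0.05). Of these, 2744 (18.1% of genes tested) rose and 3450 (22.8%) fell. Falls were more numerous but smaller. The median called rise was 0.72 and the median called fall -0.55 on the log2(FPKM + 1) scale. At least 2-fold on this scale, 825 genes (5.45%) rose and 170 (1.12%) fell, and at least 4-fold, 172 (1.14%) rose and 3 (0.0198%) fell. The 4-fold counts depended on the scale, with 336 rises and 19 falls at a pseudocount of 0.1 and 358 and 21 with voom on recovered reads. The rises went up to 5.10 and the falls down to -2.44. Under 1.5-fold were 979 of the rises (6.46% of genes tested) and 1942 of the falls (12.8%).

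The median change over all genes tested was -0.07, with 5% of genes below -0.74 and 5% above 1.06. Few called genes had overlapping groups, but the overlap and the test use the same values, so this is no separate support for the calls. All 3 libraries of one stage lay above all 3 of the other for 8065 genes (53.2% of those tested), with stage 4 higher for 3415 (22.5%) and lower for 4650 (30.7%). Among them were 2637 of the 2744 rises and 3356 of the 3450 falls. The count of falls of at least 2-fold depended on single stage 4 libraries, with 308 without replicate 1 and 105 without replicate 3. With each library scaled by its median ratio, 3070 genes rose and 2876 fell.

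**Figure D1:**
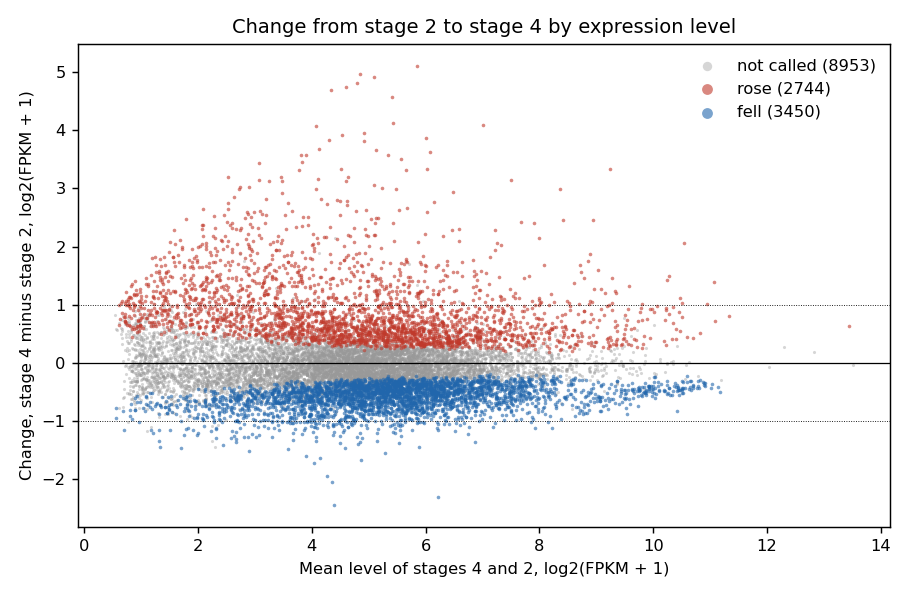
Each point is 1 of the 15147 genes tested, with its mean level at stages 4 and 2 on the horizontal axis and its change, stage 4 minus stage 2, on the vertical axis, both on the log2(FPKM + 1) scale. Dotted lines mark 2-fold changes. Rises (red) reach 5.10, while falls (blue) end at -2.44 and form a narrow band just under 0 among the most abundant genes.

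The gene with the largest rise was Spipo1G0120500, with a coding length of 483 bases. It had 61.8, 71.9 and 201 FPKM at stage 4, against 2.32, 1.72 and 1.52 FPKM at stage 2. Every stage 4 library lay far above every stage 2 library, though stage 4 replicate 3 was well above the rest of its group. The log2 change was 5.10 (SE 0.38, limma BH-adjusted p = 1.68e-06), resting on 1635 reads at stage 4 and 26 at stage 2. Its stage 3 libraries held 8.62, 4.25 and 7.79 FPKM, above all of stage 2 and below all of stage 4.

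Spipo22G0026000 (378 bases) had 60.1, 47.9 and 56.1 FPKM at stage 4, against 1.48, 0.825 and 0.242 FPKM at stage 2. The stage 4 libraries were close together, and the stage 2 libraries lay near the detection limit, with 9 reads in all against 608 at stage 4. The log2 change was 4.96 (SE 0.28, limma BH-adjusted p = 1.95e-07). A pseudocount of 1 shrinks changes of genes this low, and at 0.1 the change was 6.10. At stage 3 it held 12.8, 25.8 and 12.5 FPKM.

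Spipo1G0048900 (450 bases) had 6.61, 4.55 and 5.43 FPKM at stage 4, against 26.1, 37.7 and 40.1 FPKM at stage 2. The groups were apart by more than their own spread, and the mean of stage 2 was 6.27 times that of stage 4. The log2 change was -2.44 (SE 0.26, limma BH-adjusted p = 2.98e-05). Its stage 3 libraries held 10.2, 6.01 and 12.4 FPKM, nearer to stage 4.

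Spipo11G0048900 (441 bases) had 37.8, 18.8 and 17.9 FPKM at stage 4, against 92.7, 127 and 146 FPKM at stage 2. Stage 4 replicate 1 was the highest of its group and still well below stage 2. The log2 change was -2.31 (SE 0.25, limma BH-adjusted p = 3.40e-05). Spipo20G0023600 (630 bases), named after its values were seen because it was the remaining gene to fall at least 4-fold, had 4.38, 6.67 and 8.94 FPKM at stage 4, against 15.8, 34.7 and 47.0 FPKM at stage 2. Its stage 2 libraries were widely spread, and its log2 change of -2.04 (SE 0.34, limma BH-adjusted p = 0.000629) was between -2.48 and -1.72 when 1 library was left out.

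**Figure D2:**
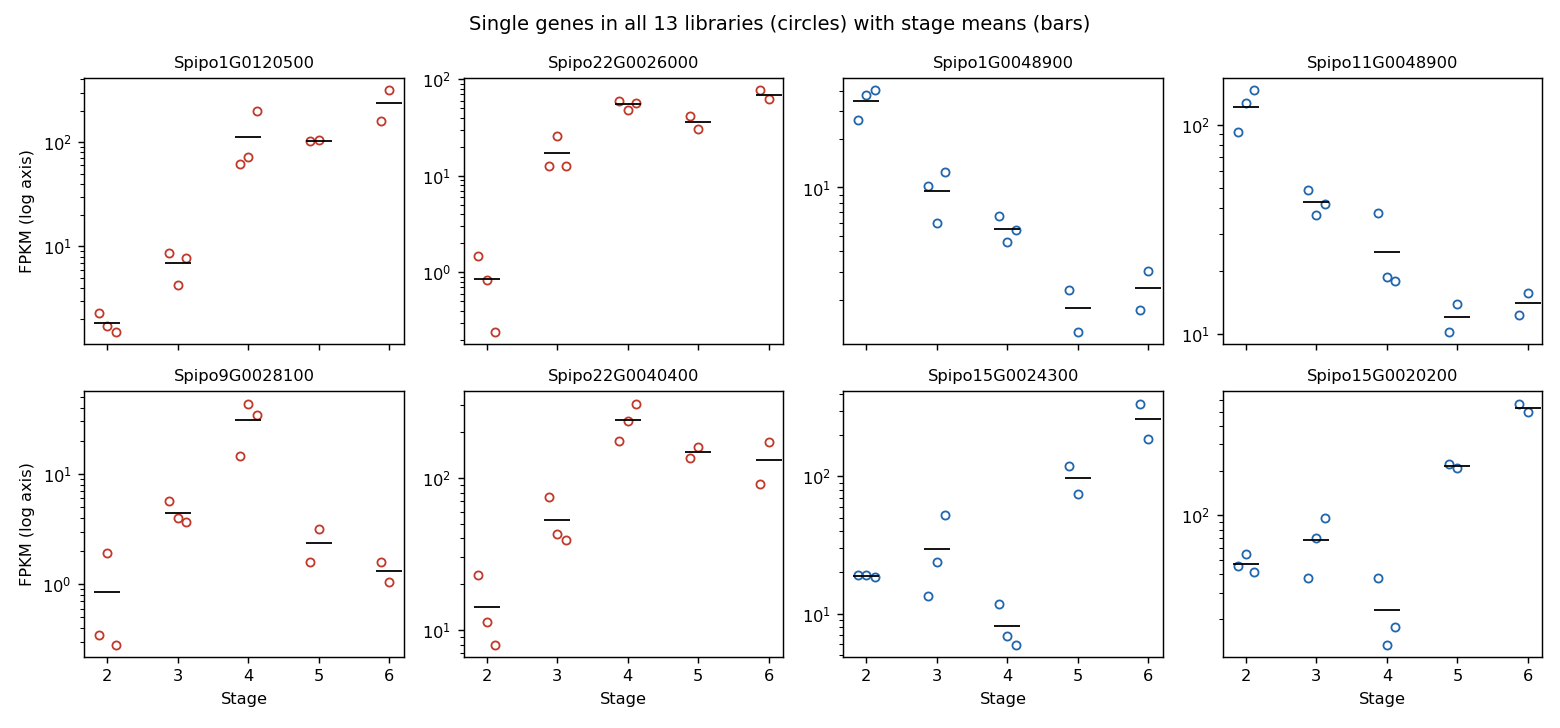
FPKM on a log axis in each of the 13 libraries (circles) at stages 2 to 6, with stage means (bars). The upper row shows the 2 largest rises (red) and 2 largest falls (blue) between stages 2 and 4, chosen for no overlap between these stages. The lower row shows the genes whose early and late changes differed most among those called in both tests with the same sign. In the lower row, too, the stage 4 circles do not overlap the stage 2 circles.

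Genes that rose and genes that fell differed in abundance. Of the 927 genes with a mean under 2 FPKM over the 6 libraries, 189 (20.4%) rose and 53 (5.72%) fell. Of the 2725 genes from 2 to 10 FPKM, 567 (20.8%) rose and 373 (13.7%) fell. From 10 to 50 FPKM, 1082 of 6901 genes rose and 1556 fell. Among the 977 genes at 200 FPKM or more, 252 (25.8%) rose and 376 (38.5%) fell.

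The share of falls was thus greater in each higher class as deposited. Rises of at least 2-fold made up 11.0% of genes from 2 to 10 FPKM and 4.71% of genes at 200 FPKM or more. The median standard error of the change was 0.26 (log2) under 2 FPKM and 0.11 at 200 FPKM or more, so smaller changes could be called among abundant genes; the part of this in the counts was not tested. The excess of rises in the 2 low classes turned under quantile normalization, to 106 rises and 140 falls under 2 FPKM and to 470 and 577 from 2 to 10 FPKM. Median ratio scaling kept it (192 and 41, then 595 and 290) and gave 1270 rises and 1256 falls from 10 to 50 FPKM.

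**Figure D3:**
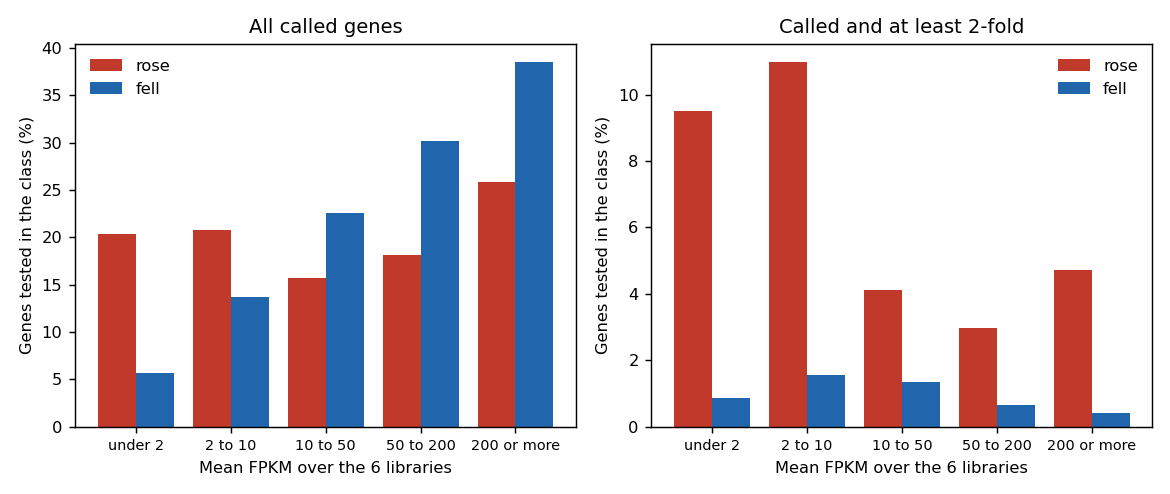
Percentage of the genes tested in each class of mean FPKM (over the 6 libraries of stages 4 and 2) that rose (red) or fell (blue) between stages 2 and 4, for all called genes (left) and for those changed at least 2-fold (right). Falls grow to 38.5% of genes at 200 FPKM or more on the left, while rises outnumber falls in every class on the right.

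Most of the 100 most abundant genes changed, mainly by small falls. These genes averaged 1161 to 11708 FPKM over the 6 libraries. Of the 100 genes, 57 fell and 27 rose, and the median change of the 100 was -0.32 against -0.07 over all genes. Their summed share of reads was nonetheless not lower at stage 4. The 100 genes held 9.36% ± 0.255 of reads at stage 4 and 8.86% ± 0.305 at stage 2 (mean and SD over libraries), a difference that was not tested. The 84 called of 100 stand against 40.9% of all genes tested. Of the 977 genes at 200 FPKM or more, which include these 100, 64.3% were called. The falls were alike in size, with a median of -0.43 and quartiles of -0.47 and -0.37, and none reached 2-fold. The rises were larger and more varied, with a median of 0.79 and quartiles of 0.53 and 0.99, and 7 reached 2-fold. With median ratio scaling 54 fell and 27 rose, and with quantile normalization 53 fell and 26 rose. Short genes made up much of this class, with a median coding length of 463.5 bases over the 100 genes, 456 for those that fell and 633 for those that rose, against 1026 for all genes tested.

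Spipo0G0142400 (399 bases) rose most among these genes. It had 2257, 2408 and 2543 FPKM at stage 4, against 685, 583 and 481 FPKM at stage 2. Both groups were tight, and the log2 change was 2.05 (SE 0.13, limma BH-adjusted p = 3.27e-07). Spipo3G0099600 (795 bases) had 1441, 1858 and 2165 FPKM at stage 4, against 707, 714 and 515 FPKM at stage 2. Its log2 change was 1.49 (SE 0.18, limma BH-adjusted p = 6.43e-05), and no stage 4 library came near the stage 2 range.

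The largest falls in this class were modest. Spipo0G0114100 (252 bases) had 1115, 1067 and 787 FPKM at stage 4, against 1770, 1936 and 1523 FPKM at stage 2, and its log2 change was -0.82 (SE 0.15, limma BH-adjusted p = 0.000993). Spipo4G0046500 (402 bases) had 1232, 1128 and 1042 FPKM at stage 4, against 1611, 1716 and 1645 FPKM at stage 2, and its log2 change was -0.55 (SE 0.10, limma BH-adjusted p = 0.000971). In both genes the libraries of the stages did not overlap.

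No gene switched on or off between the stages under the rule used. There was no gene with 3 or fewer reads over the stage 2 libraries and 5 FPKM or more in every stage 4 library. The opposite pattern was not found either. Genes below that level were not covered by the rule.

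Stage 3 lay between stages 2 and 4 for most genes changed at least 2-fold. Its mean did not enter the change that chose these genes, but its libraries shared in the estimate of spread behind the calls. Among the 825 genes that rose at least 2-fold, the stage 3 mean lay between those of stages 2 and 4 for 799 (96.8%), above stage 4 for 7 and below stage 2 for 19. Its median position was 55.7% of the way from stage 2 to stage 4 (quartiles 42.1% and 67.4%). Among the 170 genes that fell at least 2-fold, it lay between for 152 (89.4%), at a median of 59.6% of the way (quartiles 43.5% and 76.7%). For the rising genes the median change was 0.81 in the step to stage 3 and 0.67 in the step to stage 4, against 0.02 and -0.07 over all genes tested. For the falling genes it was -0.66 and -0.44. The steps share the stage 3 libraries, and the genes were chosen for their summed change.

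**Figure D4:**
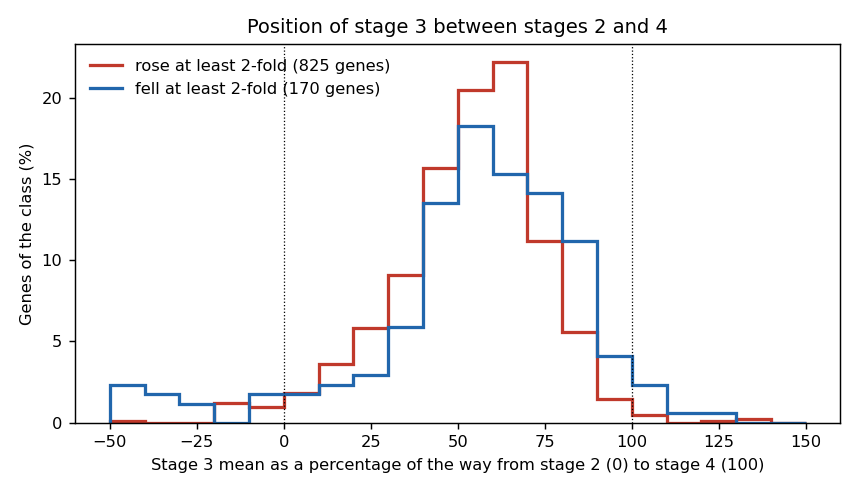
Distribution of the stage 3 mean, on the log2(FPKM + 1) scale, as a percentage of the way from the stage 2 mean (0) to the stage 4 mean (100), for genes that rose (red, 825) or fell (blue, 170) at least 2-fold. The end bins also hold values beyond the axis. Both distributions peak past the middle, with medians of 55.7% and 59.6%.

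The difference between the early steps was tested directly, as the stage 3 mean minus the midpoint of stages 2 and 4. For no gene did limma call it (0 of 15147, 0%), and the lowest adjusted p was 0.181. At an unadjusted p under 0.05 there were 1596 genes (10.5%), of which 1160 (7.66%) lay above the midpoint at stage 3 and 436 (2.88%) below. This imbalance depended on scaling. With median ratio scaling 749 lay above and 753 below, and with quantile normalization 843 and 708, and the median over all genes was 0.03 as deposited, -0.00081 and -0.00047 under these scalings in turn. The voom model on recovered reads also called 0. Library weights called 1250 genes, of which 874 lay above the midpoint. Leaving out stage 3 replicate 1 gave 69 calls, with 58 above. The median standard error was 0.13 (log2), and a gene whose whole 2-fold change fell in a single step would lie 0.5 from the midpoint, so a count of 0 does not show that the steps were equal.

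Among the genes described, Spipo1G0120500 lay 1.12 below the midpoint at stage 3 on the log2 scale (-1.12, 95% interval -1.88 to -0.37, limma BH-adjusted p = 0.341). Spipo22G0026000 lay above it, by 0.78 (95% interval 0.23 to 1.33, limma BH-adjusted p = 0.342). For the abundant Spipo0G0142400 the value was 0.11 (95% interval -0.14 to 0.36), and for Spipo4G0046500 it was -0.05 (95% interval -0.24 to 0.14), neither of which was called. The sizes of these shifts do not compare the evenness of the steps between genes, because a larger whole change leaves more room for a shift. The whole change was 2.05 for Spipo0G0142400 and -0.55 for Spipo4G0046500. It was 5.10 for Spipo1G0120500 and 4.96 for Spipo22G0026000.

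After stage 4 the genes that had risen at least 2-fold stayed high in the median. Their median change was 0.05 from stage 4 to 5 and 0.51 from stage 4 to 6, against -0.19 and -0.28 over all genes tested. Single genes could differ, and Spipo9G0028100, described below, was back near its stage 2 level at stage 6. The median level of the 825 genes per library was 4.29 to 4.75 FPKM at stage 2, 9.34 to 10.3 at stage 3, 15.8 to 20.9 at stage 4, 18.6 to 19.6 at stage 5 and 26.6 to 27.6 at stage 6. Over all genes tested it was 26.7 to 27.5 FPKM at stage 2, 25.5 to 27.0 at stage 4 and 22.8 to 23.2 at stage 6. The 825 genes held 2.19% ± 0.255 (SD over 3 libraries) of all reads at stage 2, 6.01% ± 0.575 (SD over 3) at stage 4 and 11.2% ± 0.227 (SD over 2) at stage 6. Stage 4 replicate 3 had the highest of the 3 stage 4 values for 520 of them, replicate 1 for 174 and replicate 2 for 131.

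The 170 genes that fell had a lower median level at stage 6 than at stage 4 but not a lower share of reads. Their median change was -0.14 from stage 4 to 5 and -0.50 from stage 4 to 6, against -0.19 and -0.28 over all genes tested. At stage 5 their median levels lay inside the stage 4 range. Their median level was 22.8 to 27.0 FPKM at stage 2, 14.9 to 15.9 at stage 3, 8.93 to 12.7 at stage 4, 9.30 to 9.43 at stage 5 and 7.38 to 8.76 at stage 6. Pooled over libraries, they held 0.703% of reads at stage 2, 0.314% at stage 4, 0.448% at stage 5 and 0.535% at stage 6. Without Spipo15G0024300 and Spipo15G0020200, described next, the other 168 held 0.307% at stage 4 and 0.368% at stage 6.

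**Figure D5:**
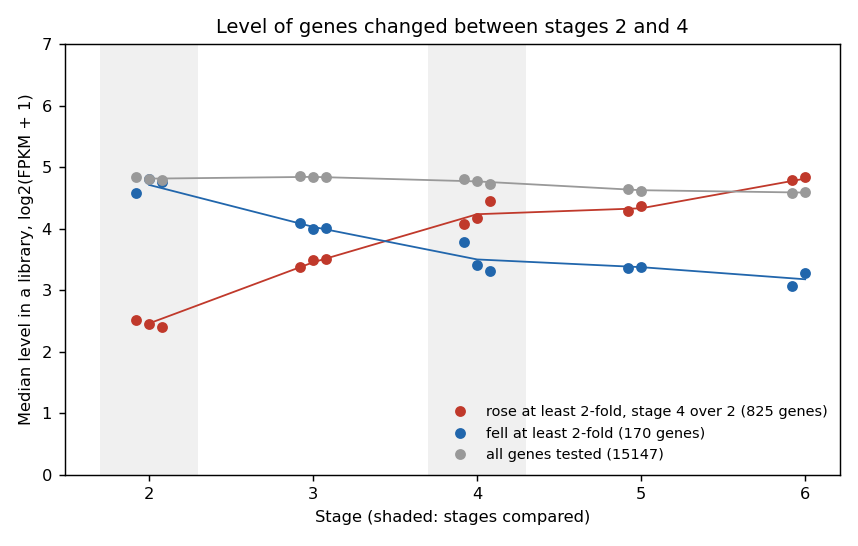
Median level of 3 groups of genes in each of the 13 libraries, on the log2(FPKM + 1) scale, with lines through the stage means; shading marks the stages compared to choose the groups, with a spread estimated over all 13 libraries. The 825 rising genes (red) go on up to stage 6. The 170 falling genes (blue) have means of 3.50, 3.37 and 3.18 at stages 4, 5 and 6. All genes tested (grey) go down as well, with means of 4.77, 4.62 and 4.59 at these stages.

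The early change was set against the late change, from stage 4 to stage 6, in a test of the difference. The value tested was the change to stage 4 minus the change from stage 4 to 6. Limma called 4179 of 15147 genes (27.6%), of which 2853 (18.8%) had a higher and 1326 (8.75%) a lower early change. This balance depended on scaling. The median difference over all genes was 0.20 as deposited and -0.0018 with median ratio scaling, which gave 1641 higher and 1928 lower. Quantile normalization gave 2200 and 1644. Without stage 4 replicate 2, the count of called genes was 2553.

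Genes were named here only if called both in this test and between stages 4 and 2, with the same sign in both. A rise to stage 4 was thus required of genes with a positive difference. Among these, the largest positive differences belonged to genes highest at stage 4, a pattern that the difference itself favours. Spipo9G0028100 (324 bases) had 0.346, 1.93 and 0.283 FPKM at stage 2, 14.4, 43.6 and 34.2 at stage 4, and 1.60 and 1.04 at stage 6. Its stage 4 libraries were all above every other library of the series, on 293 reads against 8 at stage 2 and 7 at stage 6. The early change was 4.08 (limma BH-adjusted p = 1.17e-05), and the difference between early and late change was 7.73 (SE 0.70, limma BH-adjusted p = 3.88e-05). Spipo22G0040400 (528 bases) had 22.9, 11.2 and 7.99 FPKM at stage 2, 176, 238 and 309 at stage 4, and 90.7 and 173 at stage 6. It stayed above stage 2 to the end, and its difference was 4.99 (SE 0.64, limma BH-adjusted p = 0.000236).

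For negative differences the same rule required a called fall to stage 4, so genes unchanged or rising early were left out. Among the genes kept, the largest negative differences belonged to a pair that were lowest at stage 4 and abundant later. A low at stage 4 is likewise favoured by the difference itself. Spipo15G0024300 (2712 bases) had 19.0, 19.1 and 18.4 FPKM at stage 2, 11.7, 6.91 and 5.96 at stage 4, and 339 and 187 at stage 6. Its stage 3 libraries were spread from 13.4 to 52.0 FPKM, across the stage 2 level. The early change was -1.16 (SE 0.39, limma BH-adjusted p = 0.0296) and the difference -5.99 (SE 0.70, limma BH-adjusted p = 0.000137). Spipo15G0020200 (1845 bases) had 45.3, 54.6 and 41.6 FPKM at stage 2, 37.7, 13.4 and 17.7 at stage 4, and 567 and 495 at stage 6. Stage 4 replicate 1 came close to stage 2, and the difference was -5.74 (SE 0.60, limma BH-adjusted p = 7.83e-05).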

How the data were processed

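Messenger RNA libraries of Spirodela polyrhiza fronds were prepared with a stranded kit, per the labels' protocols. The authors deposited 1 table of FPKM values, 1 column per library. The tools named are HISAT2 2.2.1, HTSeq 0.11.3, Trimmomatic 0.39, CASAVA 1.8.2 and Picard 2.25.5, per the submitters' processing notes. Not given in the sources used here are the genome build, annotation, strand setting and any further scaling. Without them, reads of overlapping, antisense or near-identical genes may be split or shared. FPKM is relative to the library total, so gains in some genes lower others.

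Reads, library totals and lengths were recovered from the steps of the FPKM values. For all 17445 genes with any value the reads came out whole within 0.001 reads plus a small relative allowance. They summed to at least 99.995% of the totals. Every length came out as a multiple of 3 where tested (9766 genes), and lengths are called coding lengths. The smallest length that fitted was taken, so the reads of a gene can be too low. Recovered reads entered depths, shares of reads, the reads given for single genes and the voom alternative. They also entered the count of genes without a read and the rule for genes switched on or off. The main tests did not use them.

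Genes reaching 1 FPKM in 2 or more of the 6 libraries of stages 2 and 4 were tested on log2(FPKM + 1) with limma 3.58.1 (R 4.3.3), with a mean-variance trend. The fit held the 13 libraries with 1 mean for each stage, leaving 8 residual degrees of freedom. P-values were adjusted by Benjamini-Hochberg (BH) over 15147 genes, and genes under 0.05 were called. This scale understates changes of genes near 1 FPKM. Intervals of 95% use the standard error and the residual degrees of freedom. Library measures were compared by exact permutation (SciPy 1.17.1). The fit was tested on simulated reads.

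Named genes were the 2 largest called rises and 2 largest called falls without overlap. The 2 largest called rises and 2 largest called falls among the 100 most abundant were added. So were the 2 largest differences each way between early and late change. These last were taken among genes called both in that test and between stages 4 and 2, with the same sign in both. No gene qualified for stage 3 against the midpoint. Planned lists of hormone, cell wall and cell type genes could not be applied to bare IDs. Members and lists were chosen with earlier results of these data known. Alternatives were other pseudocounts, filters, scalings, weights, sample sets, a replicate block, no trend, voom, and each library left out.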

Additional observations from a re-analysis of the deposited data

How the results depend on the processing

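Counts of called genes between stages 4 and 2 stayed within 1.5 times under every alternative run, from 4465 (without stage 4 replicate 3) to 7859 (library weights), as did rises and falls of any size. Leaving out 1 library gave 4465 to 5984 calls, 2131 to 2584 rises and 2334 to 3400 falls, 105 to 308 falls of at least 2-fold, and 2 to 6 falls of at least 4-fold. With a pseudocount of 0.1, 282 genes fell at least 2-fold, 336 rose and 19 fell at least 4-fold; with voom on recovered reads these were 311, 358 and 21, by construction of both less shrunken at low values. The stage 3 contrast gave 0 calls except 1250 with library weights and 69 without stage 3 replicate 1 (range 0 to 69 with 1 library left out). The early against late contrast gave 6327 calls with library weights (4317 higher, 2010 lower), 1641 higher with median ratio scaling, and with 1 library left out 2553 to 3924 calls, 1730 to 2729 higher and 823 to 1279 lower. The causes were not tested. The difference in median FPKM, stage 4 minus stage 2, was -0.13, and 0.46 with median ratio scaling; with 1 library left out it was -0.296 to 0.114. The gain in genes at 1 FPKM or more was 212 to 259 and that in the share of the top 100 genes 0.660 to 1.33 percentage points with 1 library left out. Same-numbered libraries of stages 4 and 2 had deviations correlated by 0.22, -0.09 and 0.07 for replicates 1, 2 and 3, without a label that links them, and were analysed as unpaired. A replicate block gave 6411 calls between stages 4 and 2, 0 for stage 3 and 4287 for early against late. All 229 alternative values of the 13 named changes kept their sign and call. For the genes named for early against late, only that difference was rerun, and their changes between stages 4 and 2 were not. Genes under 2 FPKM had a median standard error of 0.26 (log2), and the part of read depth in it was not tested.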

Other observations

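The counts of early changes differed between classes of coding length, not always in 1 direction. Among 842 genes under 300 bases, 100 (11.9%) rose and 192 (22.8%) fell between stages 4 and 2. Among 1308 genes of 2400 bases or more, 220 (16.8%) rose and 239 (18.3%) fell. Rises of at least 2-fold made up 5.46% of genes under 300 bases, 6.98% of the 2851 genes from 300 to 600 bases and 2.60% of those of 2400 bases or more. Falls of at least 2-fold made up 2.38% of genes under 300 bases and 0.306% of those of 2400 bases or more. The median standard error was 0.20 (log2) under 300 bases and 0.13 at 2400 bases or more, and its part in these counts was not tested.

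The most abundant genes kept their early directions in the median after stage 4. For the 57 of the top 100 that fell, the median of mean FPKM was 1690, 1404, 1233, 1148 and 813 at stages 2 to 6. For the 27 that rose it was 1063, 1426, 1780, 2593 and 3425. Over all genes tested the median change from stage 4 to 6 was -0.28 (log2), and its part in the later falls was not tested.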
